A study of Mus musculus with 6 samples.

Results

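The glucocorticoid receptor Nr3c1, the mineralocorticoid receptor Nr3c2, the steroid-activating enzyme Hsd11b1 and 5 genes that respond to glucocorticoid (Fkbp5, Sgk1, Tsc22d3, Zbtb16 and Errfi1) were examined as the 8 members, out of 37074 gene names on the array. A probe was taken when the gene name in the scanner files equalled one of these symbols, which gave 18 probes of 60 bases. Of these, 15 were well above background on all 6 arrays and 3 were on no array. The arrays were of male C57BL/6J DIO mice, which are mice made obese by diet (60 kcal% fat, given for 16 weeks per the methods) under a 12 h light cycle, 3 labelled vehicle (0 mg kg−1) and 3 labelled GSK-J4 (30 mg kg−1). GSK-J4 is an inhibitor of the histone demethylases that take off H3k27me3. The methods describe i.p. injection at ZT 2 h, the hours being counted from lights on, and tissue collection at ZT 6 h. The design text gives 4 d after exposure whereas the methods give a course of 21 d, and the day of these arrays is not settled by either. Both groups carry the same strain and diet, no lean or uninjected group was on the arrays analysed here, and each array is described as a different mouse. The inhibitor was given to the whole animal, so the arrays do not separate a response of the tissue from one to events elsewhere.

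Glucocorticoids are steroid hormones of the adrenal gland, and their secretion in mice follows the time of day and stress. They bind to Nr3c1, and with higher affinity to Nr3c2, which are held in the cytoplasm by heat shock proteins and, once bound, move to the nucleus and act as transcription factors. Hsd11b1 regenerates active steroid from its inactive form within the cell, and Fkbp5 is a cochaperone that is induced by the hormone and lowers the affinity of the receptor for it. The hormone acts back on the hypothalamus to restrain the release of corticotropin-releasing hormone.

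All 3 arrays labelled vehicle were on slide 1 and all 3 labelled GSK-J4 on slide 2, each slide with its own scan. In every value below, an effect of the slide and one of GSK-J4 therefore cannot be told apart. The share of probes well above background was 62.8% to 63.6% in vehicle and 57.7% to 58.7% in GSK-J4. Before any scaling between arrays, the 75th percentile of the spot signal was 1136 to 1335 in vehicle and 606.3 to 692.6 in GSK-J4. A rise or fall below is therefore one relative to the other probes of the same array, after normalization. The markers of the labelled tissue were largely dim. Of 7 hypothalamic markers, Sim1 and Nkx2-1 were well above background on 0 of 6 arrays, Pmch and Trh on 3, and the kept ones, Hcrt, Agrp and Oxt, lay between 4.43 and 6.44 on the log2 scale of the deposited table, whose median on each array is 5.753. All 5 markers of cortex and hippocampus were kept, and Tbr1 lay between 12.02 and 12.56. Choroid plexus markers, Ttr among them, stood apart on vehicle replicate 1, with a summed signal of 93400 against 2410 and 2630 in the other vehicle arrays and 2180 to 10800 in GSK-J4. In whole tissue, fewer cells of a type and less RNA per cell cannot be told apart.

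Of the probes that depart from another probe of the same gene, those of Fkbp5 and Zbtb16 are printed, with the dimmest probe of Nr3c2, because each value below is the signal of such a 60-base stretch and not of a whole gene. The probes of Nr3c1 are not shown. All are from the scanner files, in the sense of the transcript, on mm9. They lie at chr8:79432389-79432448 (Nr3c2, plus strand), chr17:28574995-28575054 (Fkbp5, minus strand) and chr9:48473399-48525415 (Zbtb16, minus strand). The last spans 52017 bases of genome for 60 bases of probe, so it crosses a splice junction. How its bases divide across the junction was not examined. Exon positions of this build were not used here. Each of the 3 holds at least 2 reading frames without a stop codon.
Nr3c2 A_51_P377914: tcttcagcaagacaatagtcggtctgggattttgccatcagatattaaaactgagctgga
Fkbp5 A_52_P481493: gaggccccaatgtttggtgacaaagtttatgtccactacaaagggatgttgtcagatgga
Zbtb16 A_66_P119534: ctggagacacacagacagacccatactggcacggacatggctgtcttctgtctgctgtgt

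Nr3c1 and Nr3c2 bind DNA as dimers at inverted repeats of the hexamer TGTTCT. This hexamer was searched on both strands in the RefSeq promoter windows (GRCm38.p6, 250 bases before to 50 bases after a start). It was found in 6233 of 32851 windows (19%), and in 4 of the 14 windows of 6 members, 3 of Sgk1 and 1 of Tsc22d3. The whole repeat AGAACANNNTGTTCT, which contains the hexamer on both strands, was found in 3 windows of all (0.00913%), and 1 of these is an Sgk1 window. It is shown for that reason, with the hexamer of either strand in capitals, as the 250 bases before the start (chr10:21993640-21993889, plus strand), in which the repeat lies 189 to 175 bases before the start. A match is a stretch of letters and not a bound site, and the probe of Sgk1 does not tell which start was used.
Sgk1 promoter: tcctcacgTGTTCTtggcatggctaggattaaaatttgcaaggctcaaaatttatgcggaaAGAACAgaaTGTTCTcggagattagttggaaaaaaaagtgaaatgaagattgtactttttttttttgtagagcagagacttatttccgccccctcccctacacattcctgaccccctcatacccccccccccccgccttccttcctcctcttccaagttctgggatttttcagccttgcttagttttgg

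Of the 15 probes tested, limma called 2 higher and 1 lower in GSK-J4 at a Benjamini-Hochberg adjusted p of at most 0.05, over 34444 probes of which 8.39% were called higher and 8.42% lower. The higher ones were a probe of Nr3c1 and the junction probe of Zbtb16, and the lower one was the probe of Sgk1. The share among the members, 3 of 15, is small in number and near that of the array. None of the 15 was changed 1.5-fold or more with an unadjusted limma p of at most 0.05, which 4.79% of all probes were higher and 7.86% lower, and none passed the same limits with the methods' t-test. At an unadjusted limma p under 0.05, 2 of the 15 probes were higher and 3 lower (Nr3c1 once in each direction), compared with 19.5% and 17% of all probes, and the methods' t-test gave the same numbers of member probes. The groups did not overlap for 2 probes higher and 3 lower, compared with 24.5% and 21.2% of all probes. The log2 differences were above 0 in 5 probes and below 0 in 10, with a median of −0.11 compared with 0.02 over all probes. Leaving out any 1 vehicle array left 0 of the 3 calls, and scaling to the 75th percentile of each array in place of quantile normalization gave 2 higher and 0 lower.

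**Figure D1:**
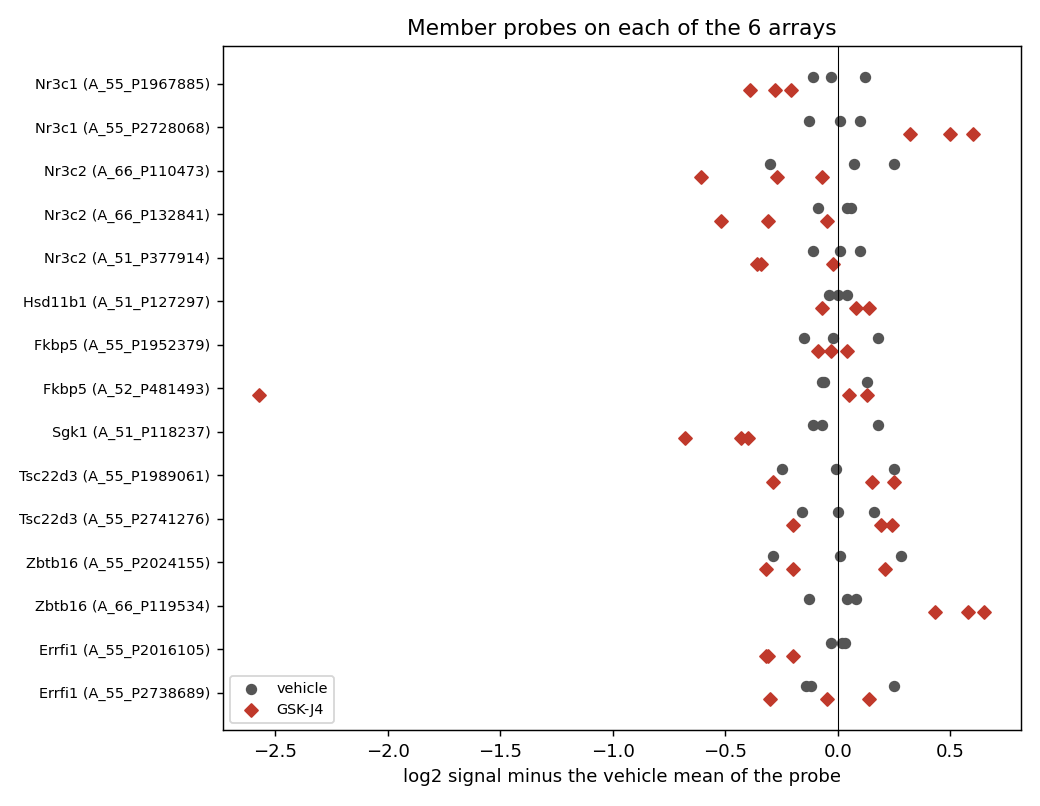
Log2 signal of each of the 15 member probes on the 3 vehicle arrays (grey circles) and the 3 GSK-J4 arrays (red diamonds), minus the vehicle mean of that probe. The GSK-J4 points lie wholly to the right of vehicle for 2 probes and wholly to the left for 3, and 1 point of Fkbp5 lies far below all others.

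The 2 probes of Nr3c1, the glucocorticoid receptor (chromosome 18, minus strand), lay on opposite sides of vehicle. At A_55_P1967885 the log2 signal was 13.00, 12.85 and 12.77 in vehicle and 12.60, 12.49 and 12.67 in GSK-J4. Every GSK-J4 array was below every vehicle array, by a mean of −0.29 (SE 0.09, 3 arrays per group), which did not pass the test (limma adjusted p = 0.0824). At A_55_P2728068, which lies 16631 bases nearer to the start of the gene, the values were 11.97, 12.20 and 12.11 in vehicle and 12.70, 12.60 and 12.42 in GSK-J4. Here every GSK-J4 array was above every vehicle array, and the probe rose by 0.48 (SE 0.11, limma adjusted p = 0.0377). Its spot signal before scaling between arrays was 4920, 6840 and 5470 in vehicle and 5550, 4930 and 3910 in GSK-J4.

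The 2 Nr3c1 differences were 0.77 apart on the log2 scale, with an exact two-sided permutation p of 0.1, the smallest that 3 arrays against 3 allow. A distance of that size or more between probes was found in 15.6% of 7191 genes (those that had more than 1 probe detected on every array), and the median distance was 0.31. A call higher and a call lower in the same gene was found in 89 of those genes (1.24%), and Nr3c1 was not one of them. The higher probe ranged from 0.40 to 0.66 over the settings tried, with an adjusted p from 0.0176 to 0.113. The other ranged from −0.34 to −0.10, with an adjusted p from 0.051 to 0.454. The direction for Nr3c1 as a gene therefore depends on the probe.

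Nr3c2, the mineralocorticoid receptor on chromosome 8 (plus strand), is the receptor that is largely occupied at low hormone levels. None of its 3 probes passed the test. The brightest, A_66_P110473 (mm9 79768704 to 79768763), had 13.47, 13.65 and 13.10 in vehicle and 12.79, 13.33 and 13.13 in GSK-J4, a difference of −0.32 (SE 0.20, limma adjusted p = 0.295). A_66_P132841 (79766784 to 79766843) had 10.01, 10.03 and 9.88 in vehicle and 9.45, 9.92 and 9.66 in GSK-J4, a difference of −0.30 (SE 0.13, limma adjusted p = 0.168). A_51_P377914, printed above, had 7.60, 7.51 and 7.39 in vehicle and 7.14, 7.48 and 7.16 in GSK-J4, a difference of −0.24 (SE 0.12, limma adjusted p = 0.204). GSK-J4 replicate 1 was the lowest and replicate 2 the highest of its group at each of the 3 probes, and the groups overlapped at each. The 3 differences were within 0.07 of one another in the deposited table, but −0.07, −0.25 and −0.37 with scaling to the 75th percentile and −0.15, −0.13 and −0.24 with the GC trend removed.

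Hsd11b1 on chromosome 1 (probe A_51_P127297, 195048169 to 195048228) had 12.30, 12.26 and 12.34 in vehicle and 12.23, 12.38 and 12.44 in GSK-J4. The groups overlapped, and the difference of 0.05 (SE 0.08, limma adjusted p = 0.689) had a 95% interval from −0.15 to 0.26. It was 0.22 (limma adjusted p = 0.103) with scaling to the 75th percentile and 0.19 with normexp background correction, and its adjusted p ranged from 0.103 to 0.976 over the settings. Hsd11b2, which inactivates the hormone, was well above background on 0 of 6 arrays. H6pd, which supplies the cofactor for Hsd11b1, had a difference of 0.25 (limma adjusted p = 0.182).

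Fkbp5, on chromosome 17 (minus strand), is among the most used readouts of receptor activity in brain. Its brightest probe, A_55_P1952379 (mm9 28536060 to 28536119), had 11.27, 11.40 and 11.60 in vehicle and 11.33, 11.46 and 11.39 in GSK-J4. All 3 GSK-J4 values lay within the vehicle range, and the difference was −0.03 (SE 0.10, limma adjusted p = 0.846, 95% interval −0.29 to 0.23), with the sign turned to 0.10 by scaling to the 75th percentile.

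The probe A_52_P481493, printed above, had 8.09, 8.08 and 8.28 in vehicle and 8.20, 8.28 and 5.58 in GSK-J4. Only GSK-J4 replicate 3 stood apart, 2.5 below the next lowest array, and the difference of −0.80 (SE 0.74, limma adjusted p = 0.47) was 0.09 (SE 0.10, limma adjusted p = 0.552) without that array. The spot of GSK-J4 replicate 3 carried no flag, was well above background and had a processed signal of 30.9, compared with 213 and 229 on the other GSK-J4 arrays. The kept probes within 5 rows and 5 columns of it, 78 in number, were also low on that array, with a median difference of −1.42 from the mean of the other GSK-J4 arrays. Around the spots of the other 14 member probes such medians lay between −0.19 and 0.32 on the 6 arrays. A gap of at least this size below the other 5 arrays was found for 206 kept probes (0.6%) on GSK-J4 replicate 3 and for 4 to 23 on each of the others. Of the 206, 77 lay within 20 rows and 20 columns of the Fkbp5 spot, which is 37.4% of them in an area holding 1.94% of the kept probes. The third probe, A_66_P107081, lay between 1.91 and 3.41 and was well above background on no array.

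**Figure D2:**
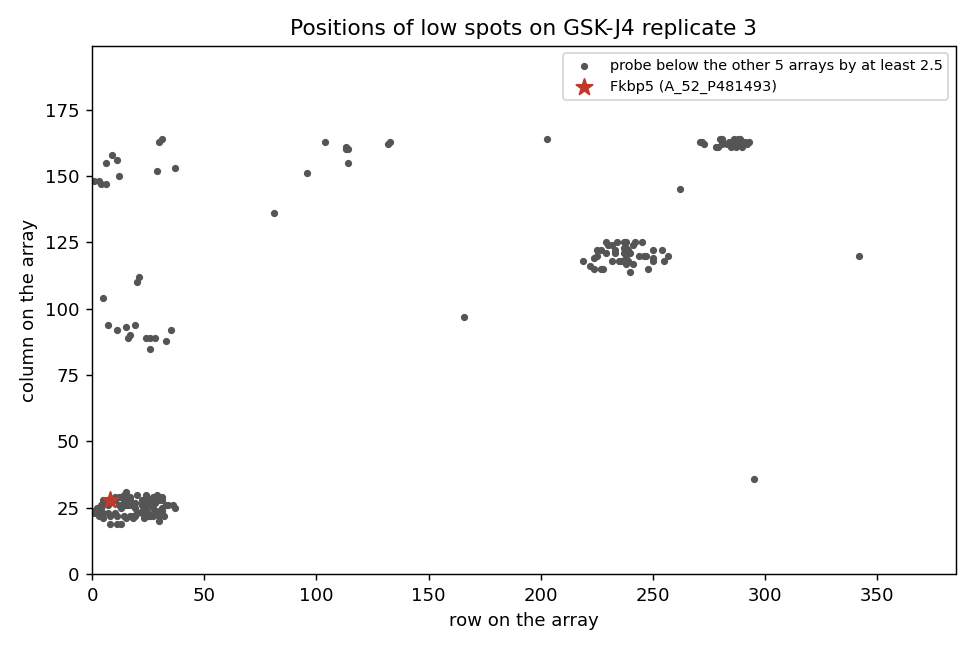
Row and column on the array of GSK-J4 replicate 3 of the 206 kept probes that lay at least 2.5 (log2) below each of the other 5 arrays. The Fkbp5 probe (red star) sits inside the densest group, with 77 of the 206 within 20 rows and 20 columns of it, and smaller groups lie elsewhere on the array.

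Sgk1, a kinase of salt transport and neuronal excitability that is induced by both receptors, fell. Its probe A_51_P118237 (mm9 chr10:21719390-21719449, plus strand) had 13.71, 14 and 13.75 in vehicle and 13.42, 13.39 and 13.14 in GSK-J4. Every GSK-J4 array was below every vehicle array, by a mean of −0.51 (SE 0.12, limma adjusted p = 0.0433), a fold change of 1.42. Probes of the same GC content (40%) had a median difference of −0.02. The difference stayed below 0 in each setting, from −0.56 to −0.23, with an adjusted p from 0.0266 to 0.256, and was −0.23 with scaling to the 75th percentile. The call held in 6 of 18 settings. It was also lost with normexp (−0.42, limma adjusted p = 0.138) and with the GC trend removed (−0.47, limma adjusted p = 0.0644). With no filter, the methods' t-test, a block for the replicate number or any 1 array left out, the call was lost as well. The second probe, A_52_P352246, lay between 1.97 and 3.99 and was well above background on no array, so Sgk1 rests on 1 probe.

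Tsc22d3 (Gilz) on chromosome X (minus strand), which carries anti-inflammatory effects of the hormone, did not pass the test. A_55_P1989061 (137074094 to 137074153) had 13.05, 13.29 and 13.55 in vehicle and 13.55, 13.01 and 13.45 in GSK-J4, a difference of 0.04 (SE 0.19, limma adjusted p = 0.9). A_55_P2741276, 707 bases away, had 11.85, 12.01 and 12.17 in vehicle and 12.25, 11.81 and 12.20 in GSK-J4, a difference of 0.07 (SE 0.15, limma adjusted p = 0.751). Both probes put the 6 arrays in nearly the same order, with GSK-J4 replicate 2 at the bottom and vehicle replicate 1 next. The spread within a group thus exceeded the difference between groups at each. With scaling to the 75th percentile the differences were 0.30 and 0.23, and they did not pass the test in any setting. The third probe, A_55_P2719913, lay between 1.84 and 1.93 and was well above background on no array.

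Zbtb16 (Plzf), a zinc finger repressor on chromosome 9 (minus strand), had 1 probe that rose and 1 that did not pass the test. The brighter probe, A_55_P2024155 (48462419 to 48462478), had 12.73, 13.03 and 13.30 in vehicle and 12.82, 12.70 and 13.23 in GSK-J4. The groups overlapped, with a difference of −0.11 (SE 0.20, limma adjusted p = 0.734) that was 0.11 with scaling to the 75th percentile. The junction probe A_66_P119534 had 8.22, 8.39 and 8.43 in vehicle and 8.93, 8.78 and 9 in GSK-J4. All GSK-J4 arrays were above all vehicle arrays, by 0.56 (SE 0.10, limma adjusted p = 0.0241), a fold change of 1.47. The spot signal of this probe before scaling between arrays was 410, 517 and 462 in vehicle and 368, 328 and 342 in GSK-J4.

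The junction probe of Zbtb16 has a GC content of 55%, at which kept probes had a median difference of 0.23. With the trend with GC content removed within each array its difference was 0.29 (limma adjusted p = 0.0967), and over all settings it lay between 0.29 and 0.62, with an adjusted p from 0.0164 to 0.0967. The 2 probe differences were 0.66 apart (exact two-sided permutation p = 0.1), a distance reached by 21.3% of genes with several probes.

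**Figure D3:**
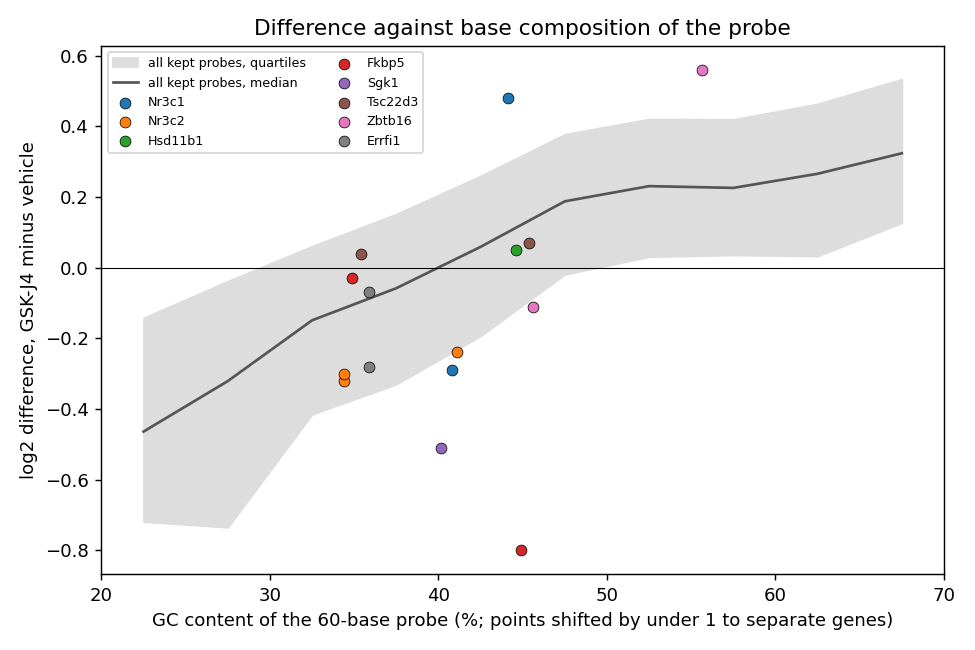
Log2 difference (GSK-J4 minus vehicle) of the 15 member probes by gene against the GC content of the probe in percent, over the median (line) and quartiles (band) of all kept probes. Differences of all probes climb with GC content. Among the probes outside the quartiles, the Zbtb16 junction probe at 55% and 1 of Nr3c1 at 45% sit above. Sgk1 at 40% and the Fkbp5 probe with 1 low spot, at 45%, are among those below.

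Errfi1 on chromosome 4 (plus strand), an inhibitor of the EGF receptor family that the hormone induces, had 2 probes. A_55_P2016105 (150242886 to 150242945) had 12.55, 12.56 and 12.5 in vehicle and 12.21, 12.33 and 12.22 in GSK-J4. The groups did not overlap, and the difference of −0.28 (SE 0.07) did not pass the test by a small margin (limma adjusted p = 0.0514). It passed in 4 of 18 settings, which were normexp, the filter for probes detected on every array, the variance trend and 1 probe per gene, and its adjusted p ranged from 0.0256 to 0.374. The difference was −0.11 with the GC trend removed, its GC content being 35% and the median of such probes −0.13. The second, A_55_P2738689 (150229849 to 150229908), was dim, with 5.38, 5.77 and 5.40 in vehicle and 5.22, 5.47 and 5.66 in GSK-J4, a difference of −0.07 (SE 0.16, limma adjusted p = 0.793).

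**Figure D4:**
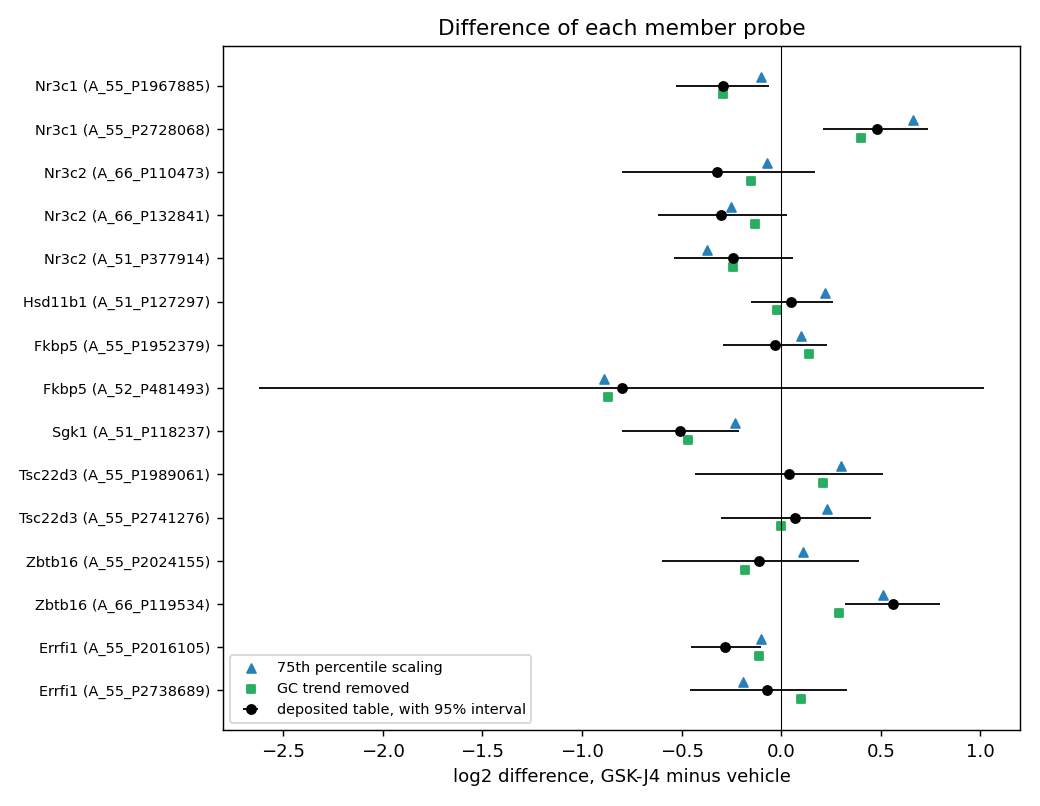
Log2 difference (GSK-J4 minus vehicle) of each member probe in the deposited table with its 95% interval (black), with scaling to the 75th percentile (blue triangles) and with the GC trend removed (green squares). The interval lies wholly above 0 for 1 probe each of Nr3c1 and Zbtb16 and wholly below 0 for Sgk1, the other probe of Nr3c1 and 1 of Errfi1, and the widest is that of the Fkbp5 probe with 1 low spot.

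Of 79 other genes of the pathway in 6 lists, 74 had a kept probe, and the one with the highest mean was read for each. Limma called 4 higher and 1 lower, where 8.6% and 7.56% of 22117 genes were called higher and lower. Scaling to the 75th percentile gave 16 higher and 0 lower. Over all 34444 kept probes that scaling also called more, 5036 higher and 3634 lower, compared with 2889 and 2899 in the deposited table. The median log2 difference was 0.10 compared with 0.04 over all genes, with 46 above 0 and 28 below.

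Among 12 genes listed as chaperones of the receptor, 1 rose and 1 fell, with a median of 0.07. Fkbp4, the cochaperone that Fkbp5 competes with and that favours transport of the receptor to the nucleus, had 12.54, 12.66 and 12.5 in vehicle and 13.16, 12.99 and 12.99 in GSK-J4, and rose by 0.48 (SE 0.09, limma adjusted p = 0.0253). Hspa8, the constitutive Hsc70, had 15.83, 15.75 and 15.90 in vehicle and 15.44, 15.59 and 15.50 in GSK-J4, and fell by 0.32 (SE 0.08, limma adjusted p = 0.0487). Hsp90aa1 and Hsp90ab1, which hold the receptor ready to bind, had differences of 0.13 and 0.06 that did not pass. The value farthest from 0 in the list was that of Hsp90b1 (named here after its values were seen), −1.57 (SE 1.04, limma adjusted p = 0.321). Hsp90b1 is an Hsp90 of the endoplasmic reticulum and not one that holds the receptor in the cytoplasm. It had 10.58 on GSK-J4 replicate 3, 14.24 and 14.43 on the other GSK-J4 arrays, and 14.76, 14.49 and 14.72 in vehicle. Without GSK-J4 replicate 3 the difference of Hsp90b1 was −0.32. Its spot lies in the same group of low spots as that of Fkbp5, and its neighbours had a median difference of −2.04 from the other GSK-J4 arrays.

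Of 24 other responsive genes limma called none, with 5 higher and 0 lower at an unadjusted p under 0.05, which 20.1% and 15.6% of the 22117 genes were, and 0 by the adjusted t-test. The adjusted t-test called only 93 of all 34444 kept probes, so 0 by it, here and in the lists below, says little. The log2 differences were above 0 in 17 of the 24, with a median of 0.23. Cdkn1a, a cell cycle inhibitor, had 8.86, 9.18 and 9.46 in vehicle and 10.41, 9.52 and 10.25 in GSK-J4, a difference of 0.89 (SE 0.27, limma adjusted p = 0.0751). Map3k6, a stress kinase, had 8.35, 9.32 and 9.16 in vehicle and 9.90, 9.56 and 9.96 in GSK-J4, a difference of 0.86 (SE 0.28, limma adjusted p = 0.0829). The groups did not overlap for either gene, as was so in the higher direction for 24.5% of all kept probes. Probes of the GC content of Cdkn1a and of Map3k6 had median differences of 0.2 and 0.07.

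Among 10 genes of the hypothalamic pituitary adrenal axis, 7 were kept and 1 rose (2 higher and 0 lower at an unadjusted p under 0.05). Pomc, the precursor of corticotropin and of melanocortins, had 7.79, 8 and 8.03 in vehicle and 8.74, 8.60 and 9.05 in GSK-J4, and rose by 0.85 (SE 0.14, limma adjusted p = 0.022). Its probe has a GC content of 55%, as has that of Tsc22d4 below. Crh, the corticotropin-releasing hormone itself (named here after its values were seen), had 8.14, 8.62 and 8.71 in vehicle and 8.84, 8.90 and 8.96 in GSK-J4. The groups did not overlap, and the difference of 0.41 (SE 0.16) did not pass the test (limma adjusted p = 0.13). Avp, which acts with corticotropin-releasing hormone, was well above background on 3 of 6 arrays, and Ucn and Ucn3 on 0 and 1. The pituitary hormones Gh, Prl, Cga and Fshb were on 0 of 6, and Tshb on 1. Lhb, also a pituitary hormone gene, was on all 6, between 7.69 and 8.28, with a difference of 0.18 (limma adjusted p = 0.375).

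In the remaining lists, 2 of 16 partners and relatives of the members rose and none fell. Tsc22d4, a relative of Tsc22d3, rose by 0.33 (SE 0.07, limma adjusted p = 0.035) and Fkbp1a, a relative of Fkbp5, rose by 0.33 (SE 0.07, limma adjusted p = 0.0304), where probes of the GC content of each had medians of 0.23 and 0.38. Limma called 0 of 11 coregulators (2 lower at an unadjusted p under 0.05, 0 by the adjusted t-test), with a median of −0.03. Their values farthest from 0 were those of Crebbp, an acetyltransferase (0.51, limma adjusted p = 0.323, and 0.11 without vehicle replicate 1), and Ppargc1a, a coactivator of energy metabolism (−0.48, limma adjusted p = 0.112). Limma called 0 of the 4 kept genes of steroid access and metabolism (0 at an unadjusted p under 0.05, 0 by the adjusted t-test). Besides H6pd the largest difference was that of Abcb1a, which exports some corticosteroids at the blood-brain barrier (0.10, limma adjusted p = 0.443).

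**Figure D5:**
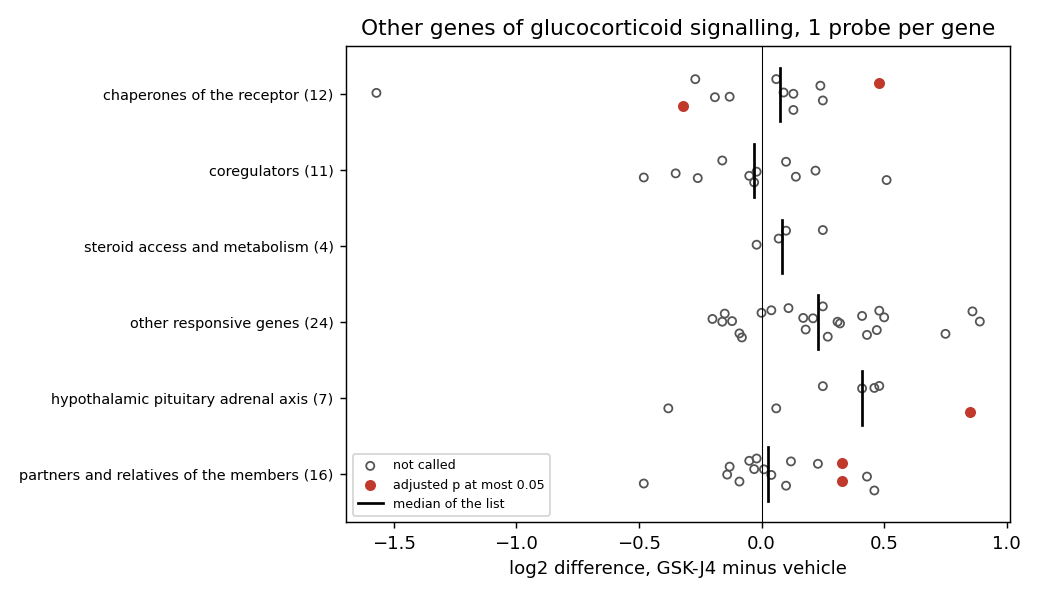
Log2 difference (GSK-J4 minus vehicle) of the 74 kept genes by list, with the 5 genes called by limma in red and the median of each list as a black line. The medians lie between −0.03 and 0.41, and the single point far to the left among the chaperones is Hsp90b1, with 1 low array.

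Markers of the cell types that express these receptors were counted in the same way. Limma called none of the 5 astrocyte, 5 oligodendrocyte, 5 endothelial and 5 microglial markers (at an unadjusted p under 0.05, 1 higher and 1 lower, 1 higher, none, and 2 higher, and 0 by the adjusted t-test), with medians of −0.10, 0.11, −0.10 and 0.03. Without GSK-J4 replicate 3, on which Csf1r and Tmem119 were 11.88 and 9 against 13.68 and 13.82, and 10.74 and 10.68, on the other GSK-J4 arrays, the microglial median was 0.27 with 4 of 5 above 0. Of the 5 neuronal markers Map2 fell by 0.33 (limma adjusted p = 0.043), and their median was −0.33, but 0.05 without GSK-J4 replicate 3, on which Rbfox3 was 13.61 against 14.92 on both other GSK-J4 arrays. Of these markers 3 were below 0 and 2 above, Syt1 at 0.08 (limma adjusted p = 0.494) and Tubb3 at 0.46 (limma adjusted p = 0.0692). At an unadjusted limma p under 0.05, 1 neuronal marker was higher and 2 lower. Without vehicle replicate 2 the oligodendrocyte median was −0.02, and without GSK-J4 replicate 1 the astrocyte median was 0.02. Of the 5 markers of cortex and hippocampus, Emx1 rose by 0.53 (limma adjusted p = 0.0373) and Neurod6 fell by 0.47 (limma adjusted p = 0.0335). The probe of Emx1 has a GC content of 55%, at which kept probes had a median difference of 0.23. Those of Neurod6 and Map2 have 35%, at which the median was −0.13. The summed signal of the neuronal list was 137000 to 147000 in vehicle and 125000 to 141000 in GSK-J4. What part these had in the differences of Sgk1, Nr3c1 and Zbtb16 was not tested.

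The genes most like each member were sought by Pearson r of log2 signal over the 6 arrays, with the brightest probe of the member, among 26203 to 26205 candidate probes. For Nr3c1 they were Cers4 and Spats2 (r = 0.997 and 0.993) and for Nr3c2 Camk1d and Dscr3 (0.995 and 0.992). Sgk1 was most like Gm9234 and Chac2 (0.999 and 0.998) and Errfi1 most like Gpm6a and Trpm2 (0.999 and 0.998). For Hsd11b1 they were Gm5141 and Rmnd1 (0.998 and 0.993), for Fkbp5 Fam122a and Nae1 (0.984 and 0.978), for Tsc22d3 Osbpl9 and Nt5c3 (0.983 and 0.982) and for Zbtb16 Pdhx and Map3k7 (0.989 and 0.988). With 6 arrays such values are reached by many probes, since r was at least 0.95 for 724 candidates with Errfi1, 181 with Sgk1 and 105 with Nr3c1, and the arrays also share slide, group and base composition effects.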

How the data were processed

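Total RNA of 6 mice was labelled with Cy3 and hybridized to Agilent SurePrint G3 mouse arrays, 1 mouse per array. The authors extracted spot intensities with Feature Extraction (10.7.1.1), deposited per array as background-subtracted processed intensity with detection flags and no scaling between arrays. Beside these the authors deposited log2 values in 1 table, normalized by quantiles in GeneSpring per the methods, and every value here is from it unless another setting is named. Its sorted columns differed by at most 0.00424. Of 37074 gene names, 24787 were among RefSeq symbols or synonyms. The 140 control rows were left out, and 0 columns were left unassigned.

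A probe was kept when at least 1 group had it well above background on each of its 3 arrays (34444 of 56605). Groups were compared with limma 3.58.1 (lmFit, eBayes, two-sided, no covariate) in R 4.3.3 with Benjamini-Hochberg adjustment over all kept probes, at an adjusted p of at most 0.05. This limma test stands in place of the methods' t-test because of 3 arrays a group. Single values had an exact permutation test over 20 splits. The number of arrays limits the precision, and the 3 arrays of a group correlated across kept probes at 0.978 to 0.995. The fit was tested on simulated data.

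The members, gene lists and tests were chosen with earlier results of these data known. Genes named were the 8 members with every probe, other pathway genes past an adjusted p of 0.05 and otherwise the 2 of a list with the largest difference among genes well above background on all 6 arrays, and the 2 probes most correlated with each member. Areas of 5 and 20 rows and columns around a spot were chosen after its value was seen. Alternatives were quantile normalization of the spot signals, scaling to the 75th percentile, normexp with an offset of 50, other filters, a variance trend, the methods' t-test without equal variances, weights by array, a block for the replicate number, removal of a GC trend (lowess, span 30%), 1 probe per gene and leaving out each array.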

Additional observations from a re-analysis of the deposited data

How the results depend on the processing

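Signal over background, lower in GSK-J4, and 3 arrays per group limit all calls. Of the 3 member calls (2 higher, 1 lower), the number higher was 1 with no filter, and 0 with the methods' t-test, with the replicate block, with the GC trend removed and with 1 probe per gene. The last tests neither of those 2 probes. The number lower was 0 with 75th percentile scaling, no filter, the t-test, the replicate block and the GC trend removed, and 2 with probes well above background on all 6 arrays, with a variance trend and with 1 probe per gene. With normexp it was 1, but this was Errfi1 A_55_P2016105 (adjusted p = 0.0433) and not Sgk1 (0.138). Leaving out 1 array gave 0 to 2 higher and 0 to 0 lower, and without vehicle replicate 1, 2 or 3 none of either. Over all kept probes these 3 omissions left 10, 13 and 5 calls of 5788. The methods' t-test called 93 of the 34444 kept probes. Of the other pathway genes (4 higher, 1 lower), 75th percentile scaling gave 16 and 0, where it called 5036 and 3634 of all 34444 kept probes. For these genes the t-test and the replicate block gave 0 and 0, no filter and array weights 0 lower, and the GC trend removed 2 lower. Leaving out 1 array gave 0 to 4 higher and 0 to 1 lower there, with 0 higher without any 1 vehicle array or GSK-J4 replicate 1.

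Signs turned only in probes that did not pass the test. Hsd11b1 was −0.02 with the GC trend removed and 0.22 with 75th percentile scaling. Fkbp5 A_55_P1952379 was 0.10 with 75th percentile scaling, 0.02 with normexp and 0.14 with the GC trend removed, and −0.11 to 0.05 leaving out 1 array, and Fkbp5 A_52_P481493 was −1.26 to 0.09. With array weights Tsc22d3 A_55_P1989061 was −0.09 and A_55_P2741276 −0.03, the latter 0 with the GC trend removed, and leaving out 1 array gave −0.08 to 0.20 and −0.01 to 0.21. Zbtb16 A_55_P2024155 was 0.11 with 75th percentile scaling and −0.27 to 0.04 leaving out 1 array. Errfi1 A_55_P2738689 was 0.01 with normexp, 0.10 with the GC trend removed and −0.17 to 0.06 leaving out 1 array. Where no construction shows it, the cause was not tested.

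Medians of gene lists without each array were computed after seeing the data.

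Replicate numbers are shared by the groups, but same-numbered arrays deviated together at only r = 0.01, 0.03 and 0.08, so they were not taken as pairs, and the fit with the replicate block called 0 of 34444 probes higher and 0 lower.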

Other observations

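The order of the arrays within a group was looked at in responsive genes after the values were seen, with no test. With 1 array per mouse, a difference of the mouse and one of the array cannot be told apart. Of the 24 other responsive genes, 13 were lowest of the 3 vehicle arrays on vehicle replicate 1, where 39.7% of all 22117 genes were lowest, and 13 were highest on vehicle replicate 3, where 36.9% of all genes were highest. Of the 9 kept probes of Fkbp5, Sgk1, Tsc22d3, Zbtb16 and Errfi1, 7 were lowest on vehicle replicate 1 and 6 highest on vehicle replicate 3. These are not 9 separate genes, and probes of the same gene can repeat each other (r of deviations 0.99 for Tsc22d3 and 0.91 for Zbtb16). The shares of all genes count 1 probe per gene. Ddit4, an inhibitor of mTOR that glucocorticoid induces (named after its values were seen), had 12.49, 13.54 and 13.72 in vehicle. In the other direction, 4 of the 24 genes were highest on vehicle replicate 1 (33.3% of all genes) and 9 lowest on vehicle replicate 3 (29% of all genes). Klf9 (also named after its values were seen) had 13.71, 13.55 and 13.5 in vehicle. In GSK-J4, 15 of the 24 genes were lowest on replicate 2 (31.7% of all genes) and 14 highest on replicate 3 (40.6% of all genes), while the 9 member probes were lowest there in 4 and highest in 3. The median deviation of the 24 genes from their group mean was −0.12, 0.02 and 0.12 on the vehicle arrays and 0, −0.08 and 0.12 on the GSK-J4 arrays. Over all 22117 genes it was −0.01, 0 and 0.01 on the vehicle arrays and −0.01, 0 and 0.02 on the GSK-J4 arrays. Vehicle replicate 1 is also the array with the high choroid plexus markers, whose part in this was not tested.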
